A study of Mus musculus with 16 samples.

Results

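Dusp1, Dusp2, Dusp4, Dusp5, Dusp6, Dusp10 and Dusp16, Spry1 and Spry2, and Spred1 are negative regulators of mitogen-activated protein (MAP) kinase signalling, and their RNA was followed in mouse mast cells treated with an antibody against the receptor TIM-3. Of these 10 listed genes, 9 had a probe on the array, and Dusp5 was not analysed here. They were picked by name, as probes that are no controls and carry a listed gene's name. The list itself was chosen with earlier results of these data known, so it is no independent evidence. The 9 genes had 15 probes among 41174, and each is given by its brightest probe as 1 of 17082 genes tested. Each of the 9 was well above background in both channels on all 16 arrays, so none was left out.

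The cells were bone marrow cells grown with IL-3 and SCF for over 4 weeks into immature mast cells, with a stated purity above 90%. Activated cells were loaded with IgE against DNP (5 ug/ml) for 1 h and then given the antigen DNP-HSA (100 ng/ml), and resting cells received neither. At the same time cells received a goat agonist antibody against mouse TIM-3 or goat IgG (15 ug/ml), for 2 h or 16 h. Each of 16 dual-colour arrays compared Cy5-labelled RNA from anti-TIM-3-treated cells with Cy3-labelled RNA from IgG-treated cells. Activated and resting cells at 2 h, and activated and resting cells at 16 h, had 4 arrays per group. The antibody ratio below is log2(Cy5/Cy3), so a positive value means more RNA with anti-TIM-3. Because the dyes were never swapped, an antibody effect inside 1 group cannot be told apart from a dye bias of that gene. In a difference between groups, a bias that all arrays share drops out. Goat IgG is the control on every array, and no cells without antibody were analysed here. Nothing in the labels says that the 4 arrays of a group came from separate cultures or animals, so a p-value here reflects only how these samples spread, and that spread may be technical.

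MAP kinases (ERK, JNK and p38) are switched on by phosphorylation of a threonine and a tyrosine, and dual-specificity phosphatases remove both phosphates. Many of these phosphatase genes are themselves switched on by MAP kinase signalling, which makes them a brake that follows the signal. Sprouty and Spred proteins act higher up, between the receptor and the kinases. In mast cells, cross-linking of the IgE receptor activates all of these kinases, which drive cytokine transcription and eicosanoid release.

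The 250 bases upstream of the annotated start were available for 9 of the 10 listed genes, Dusp5 included and Dusp4 not (RefSeq, build GRCm38.p6). Those of Dusp2, Spry1 and Dusp16 are shown because their antibody ratios were the most alike of the members over the 16 arrays, and that of Dusp1 because it holds a full cAMP response element. Capitals mark the cAMP response element TGACGTCA or its core TGACG and the EGR motif GCGNGGGCG, found on either strand.
Dusp2, chr2:127335909-127336158, + strand: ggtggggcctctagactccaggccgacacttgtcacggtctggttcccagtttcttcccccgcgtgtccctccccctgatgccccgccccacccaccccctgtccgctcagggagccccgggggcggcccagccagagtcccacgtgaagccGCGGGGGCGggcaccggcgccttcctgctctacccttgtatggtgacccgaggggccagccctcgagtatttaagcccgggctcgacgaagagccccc
Spry1, chr3:37639697-37639946, + strand: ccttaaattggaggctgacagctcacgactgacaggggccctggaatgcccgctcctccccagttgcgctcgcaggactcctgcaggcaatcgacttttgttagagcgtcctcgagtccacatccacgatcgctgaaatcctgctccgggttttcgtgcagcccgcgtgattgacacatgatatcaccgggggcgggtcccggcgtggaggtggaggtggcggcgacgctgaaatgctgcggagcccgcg
Dusp16, chr6:134792629-134792878, − strand: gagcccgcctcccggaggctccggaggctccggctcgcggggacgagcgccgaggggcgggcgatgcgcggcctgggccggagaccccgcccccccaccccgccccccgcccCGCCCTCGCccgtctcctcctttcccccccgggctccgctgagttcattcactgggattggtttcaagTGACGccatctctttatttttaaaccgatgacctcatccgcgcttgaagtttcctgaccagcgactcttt
Dusp1, chr17:26508473-26508722, − strand: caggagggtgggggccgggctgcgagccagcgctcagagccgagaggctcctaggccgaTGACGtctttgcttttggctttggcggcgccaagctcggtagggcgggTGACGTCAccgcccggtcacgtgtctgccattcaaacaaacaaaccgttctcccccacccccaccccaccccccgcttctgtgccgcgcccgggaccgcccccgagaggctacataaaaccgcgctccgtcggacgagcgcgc
The full element lies 143 to 136 bases upstream of Dusp1 and is held by 1 of the 9 members, against 1.55% of 32851 promoters of the same length. The core, which the full element contains, is held by 3 members (Dusp1, Dusp16 and Dusp5), against 17.8% of all promoters. The EGR motif lies 98 to 90 bases upstream of Dusp2 and, on the other strand, 138 to 130 bases upstream of Dusp16, and 4.7% of all promoters hold it. A CArG box, the motif of serum response factor, is held by Dusp5 alone of the 9 and by 1.47% of all promoters. The AP-1 motif TGANTCA (6.75% of all promoters), the ETS motif CCGGAAG (6.91%), the NFAT motif TGGAAA (18.6%) and the NF-kappaB motif (7.25%) were found in 0 of the 9. The Spry1 window holds none of the motifs searched. These are matches of letters in a short window and nothing more.

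The share of spots well above background was 53.7% to 66.3% in Cy5 and 52.7% to 60.8% in Cy3, and 0 spots were saturated. The SD of the log2 ratios over an array's genes was 0.12 to 0.264, and the number of arrays limits the precision. Of the mast cell markers, 8 of 8 were well above background in every group, with a summed normalised intensity of 284500 to 600187 in Cy5 and 219677 to 387524 in Cy3. Of the other cell types' markers, C1qa, Elane, Camp, Ltf, Cd8a, Col1a1 and Dcn were not above background in any group. Above it were 4 or 5 of 6 macrophage and dendritic cell markers, with sums of 3866 to 10005 in Cy5 and 3699 to 10838 in Cy3. In each group 2 or 3 of 4 lymphocyte markers, 1 of 3 fibroblast markers and 1 of 4 neutrophil markers were above background as well. In bulk RNA, fewer cells of a type and less RNA per cell cannot be told apart. The log2 ratios of resting 2 h replicate 3 and resting 16 h replicates 1 and 3 correlated with each other (r of 0.517 to 0.792 over all genes) more than with the rest of their groups (0.0139 to 0.474 and 0.415 to 0.476), so results that change without them are given both ways. The grouping is loose for resting 2 h replicate 3, which had 0.558 and 0.522 with resting 16 h replicates 2 and 4. The other resting 2 h arrays had 0.364 to 0.715 among themselves.

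In activated cells at 2 h, 7 of the 9 genes were higher with anti-TIM-3 than with IgG and 0 were lower, by limma's moderated test with Benjamini-Hochberg adjustment over all genes. Over all genes tested 33.3% passed, 17.1% higher and 16.3% lower. The median antibody ratio was 0.56 over the members, against 0.00 over all genes. The rises were largest for Dusp2, a nuclear phosphatase of activated leukocytes, and for Spry1, a Sprouty inhibitor of the Ras-ERK pathway, at more than 3-fold each. Dusp6 and Spred1 did not pass.

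The 3 nuclear inducible phosphatases measured, Dusp2, Dusp4 and Dusp1, rose with the antibody in activated cells at 2 h. Dusp2, also known as PAC-1, had antibody ratios of 1.69, 1.97, 1.59 and 2.25 on the 4 activated arrays at 2 h, a mean of 1.87 ± 0.30 (SD, n = 4), which is 3.67-fold (adjusted p = 7.34e-12). Its normalised log2 intensity on those arrays was 14.10, 14.31, 14.14 and 14.50 in anti-TIM-3 cells (Cy5), against 12.41, 12.33, 12.55 and 12.25 in IgG cells (Cy3), so the channels did not overlap.
Dusp4, which acts on ERK and JNK in the nucleus, had antibody ratios of 0.57, 0.80, 0.69 and 0.79, a mean of 0.71 ± 0.11 (1.64-fold, adjusted p = 6.44e-05). Its other probe gave 0.58 (adjusted p = 3.26e-06). Dusp1, the immediate early phosphatase MKP-1 that favours p38 and JNK, had 0.46, 0.70, 0.50 and 0.59, a mean of 0.56 ± 0.11 (1.48-fold, adjusted p = 2.45e-07). All 4 arrays lay above 0 for each of these genes.

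The phosphatases that prefer JNK and p38 rose as well. Dusp16 (MKP-7) had antibody ratios of 0.43, 0.62, 0.55 and 0.61, a mean of 0.55 ± 0.08 (1.47-fold, adjusted p = 8.39e-09). Its dimmer probes gave 0.30 (adjusted p = 0.0157) and 0.18 (adjusted p = 0.0013), so the size depends on the probe. Dusp10 (MKP-5) had 0.37, 0.57, 0.53 and 0.41, a mean of 0.47 ± 0.09 (1.39-fold, adjusted p = 3.74e-05). Dusp6, the cytoplasmic phosphatase specific for ERK, had -0.06, 0.31, 0.29 and 0.19, a mean of 0.18 ± 0.17 (adjusted p = 0.12). Replicate 1 was its low array, and without that array the mean was 0.26 (adjusted p = 0.0468).

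Among the upstream inhibitors, Spry1 had antibody ratios of 1.59, 1.57, 1.45 and 1.93 in activated cells at 2 h, a mean of 1.63 ± 0.21 (adjusted p = 3.31e-12). Its normalised log2 intensity was 9.29, 9.41, 9.27 and 9.56 in anti-TIM-3 cells, against 7.70, 7.84, 7.81 and 7.63 in IgG cells. The mean ratio of Spry1 was 1.86 with a background offset of 10 in place of 50, and 2.00 with Agilent's own processed signals.
Spry2, the other Sprouty gene measured, had 0.60, 1.11, 1.23 and 0.95, a mean of 0.97 ± 0.28 (1.96-fold, adjusted p = 7.56e-07). This brightest Spry2 probe carries the accession of an expressed sequence tag, and the dimmer RefSeq probe gave 0.10 (adjusted p = 0.0835), so the rise rests on 1 probe of 2. Spred1, a membrane-bound inhibitor of Ras activation, had 0.14, 0.07, -0.07 and 0.34, a mean of 0.12 ± 0.17 (adjusted p = 0.136), or 0.19 (adjusted p = 0.0396) without replicate 3. Its 2 dimmer RefSeq probes gave 0.43 (adjusted p = 2.44e-06) and 0.34 (adjusted p = 4.49e-06), so its probes disagree.

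**Figure D1:**
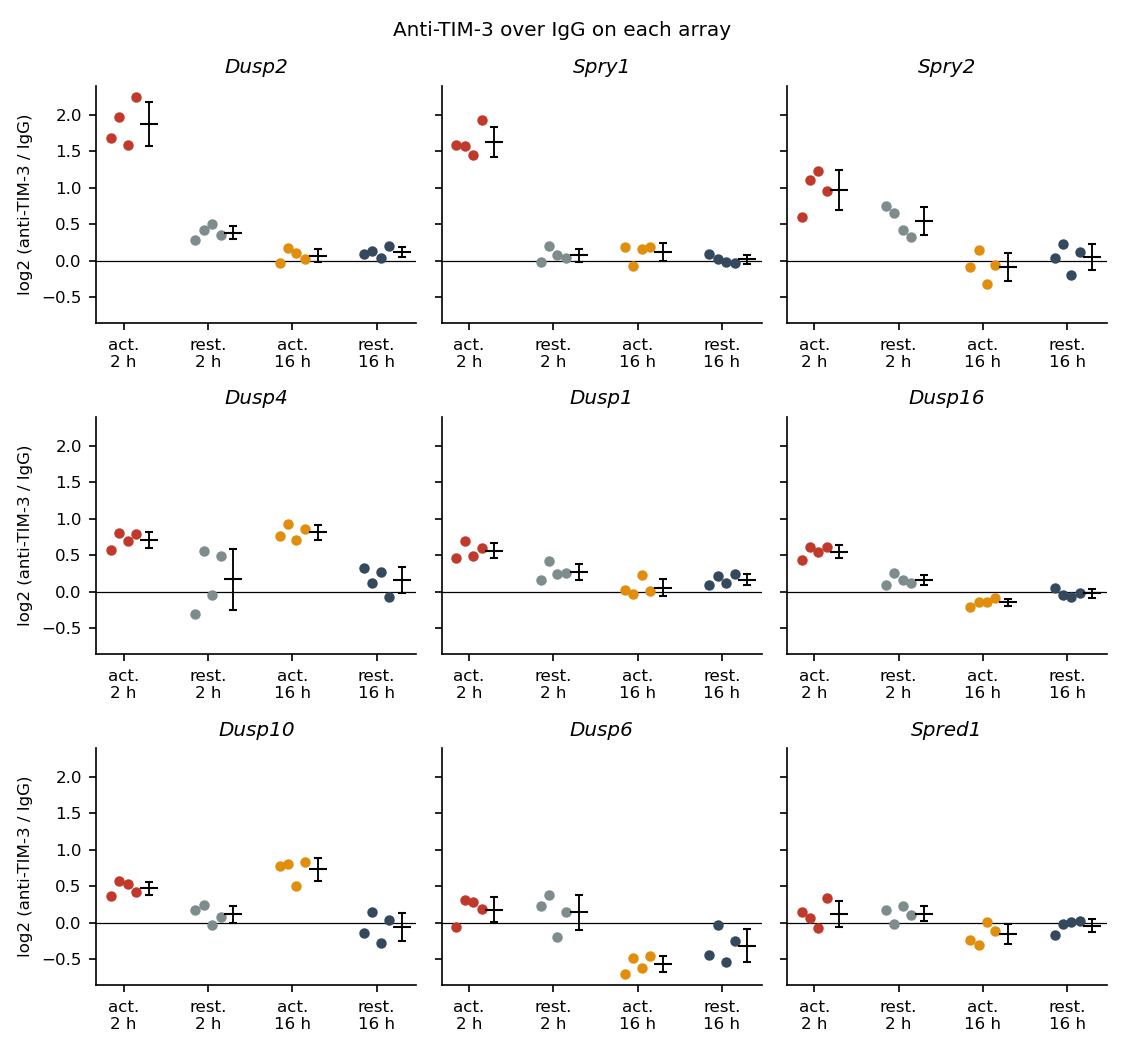
Antibody ratio, log2 of Cy5 (anti-TIM-3) over Cy3 (IgG), of the 9 genes on each of 16 arrays, for activated and resting cells at 2 h and activated and resting cells at 16 h; points are arrays in replicate order and the bar is the mean ± SD of 4 arrays. Dusp2 (1.59 to 2.25) and Spry1 (1.45 to 1.93) stand apart in activated cells at 2 h, and Dusp4 (0.70 to 0.93) and Dusp10 (0.50 to 0.83) stay high in activated cells at 16 h. Under median centring in place of loess, the values below 0 of Dusp6, Dusp16, Spred1 and Spry2 at 16 h turn positive, as does that of Dusp10 in resting cells at 16 h.

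In resting cells at 2 h, 4 of the 9 genes were higher with anti-TIM-3 and 0 were lower, where 14% of all genes passed, 7.07% higher and 6.92% lower. The median antibody ratio was 0.16 over the members, against 0.00 over all genes. Spry2 had antibody ratios of 0.75, 0.66, 0.43 and 0.33, a mean of 0.54 ± 0.20 (adjusted p = 0.00109), and its RefSeq probe gave 0.07 (adjusted p = 0.346). Dusp2 had 0.28, 0.42, 0.50 and 0.35, a mean of 0.39 ± 0.09 (adjusted p = 0.00243). Dusp1 had 0.16, 0.42, 0.24 and 0.26, a mean of 0.27 ± 0.11 (adjusted p = 0.00175). Each of these lay above 0 on all 4 arrays.
Dusp16 had 0.10, 0.26, 0.16 and 0.12, a mean of 0.16 ± 0.07 (adjusted p = 0.00962), or 0.12 (adjusted p = 0.0602) without replicate 2. The other probes of Dusp16 gave 0.14 (adjusted p = 0.335) and 0.01 (adjusted p = 0.909), so its call rests on 1 probe of 3. When only the resting 2 h arrays entered the fit, 2 of the 9 genes passed. Spry1, one of the 2 genes with the largest rises in activated cells, had -0.02, 0.20, 0.08 and 0.04, a mean of 0.08 ± 0.09. Dusp4 was uneven, at -0.31, 0.56, -0.04 and 0.49 (0.17 ± 0.42), and passed at 0.33 (adjusted p = 0.0407) without replicate 1. Dusp6 (0.14 ± 0.24), Spred1 (0.12 ± 0.10) and Dusp10 (0.11 ± 0.12) did not pass. Without the 3 arrays that stand apart, Dusp6 passed at 0.25 (adjusted p = 0.0268).

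The antibody ratios of activated and resting cells at 2 h were then compared as a difference of group means, in which a shared dye bias drops out. The ratio was higher in activated cells for 6 of the 9 genes and lower for 0, where 5.58% of all genes passed, 3.59% higher and 1.99% lower. The median difference was 0.39 over the members, against 0.00 over all genes. Spry1 differed by 1.56 (SE 0.09, adjusted p = 2.33e-09) and Dusp2 by 1.49 (SE 0.11, adjusted p = 6.16e-08), with no overlap between the groups. Without the 3 arrays that stand apart these differences were 1.56 and 1.53 (adjusted p = 1.63e-07 and 1.39e-06). Within slides 1 and 3, which hold both groups, they were 1.59 and 1.61 for Spry1, and 1.55 and 1.42 for Dusp2.

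The other differences were smaller. Dusp16 differed by 0.39 (SE 0.05, adjusted p = 0.000119), and by 0.43 and 0.42 within slides 1 and 3, while its dimmer probes gave 0.16 (adjusted p = 0.574) and 0.17 (adjusted p = 0.0704). Dusp4 differed by 0.54 (SE 0.15, adjusted p = 0.0409), and by 1.00 and 0.78 within these slides. Its call was lost without any one of activated replicates 1 to 4 or resting replicates 1 or 3 (adjusted p = 0.0505 to 0.123), and also without the 3 arrays that stand apart (0.47, adjusted p = 0.0998). Its other probe gave 0.44 (adjusted p = 0.00618).
Dusp10 differed by 0.36 (SE 0.09, adjusted p = 0.03) and by 0.29 and 0.51 within the slides, and its call was lost without activated replicate 2, 3 or 4 or resting replicate 3 or 4 (adjusted p = 0.0589 to 0.103). Dusp1 differed by 0.29 (SE 0.07, adjusted p = 0.0199) and by 0.43 and 0.30 within the slides, and its call was lost without activated replicate 2 or 4 or resting replicate 1 (adjusted p = 0.0633 to 0.0823). With slide as a block the difference for Dusp1 was 0.28 (adjusted p = 0.0743). Without activated replicate 2 or 4, or with Agilent's processed signals, 3 of the 9 genes passed.
Spry2 differed by 0.43 (SE 0.13, adjusted p = 0.0741), by 0.10 and 0.67 within the slides, and by 0.56 (adjusted p = 0.0138) without activated replicate 1, its low array. The RefSeq probe of Spry2 gave 0.03 (adjusted p = 0.842). Dusp6 differed by 0.04 (SE 0.12) and Spred1 by -0.004 (SE 0.08), while the 2 RefSeq probes of Spred1 differed by 0.31 (adjusted p = 0.00701) and 0.34 (adjusted p = 0.000845).

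**Figure D2:**
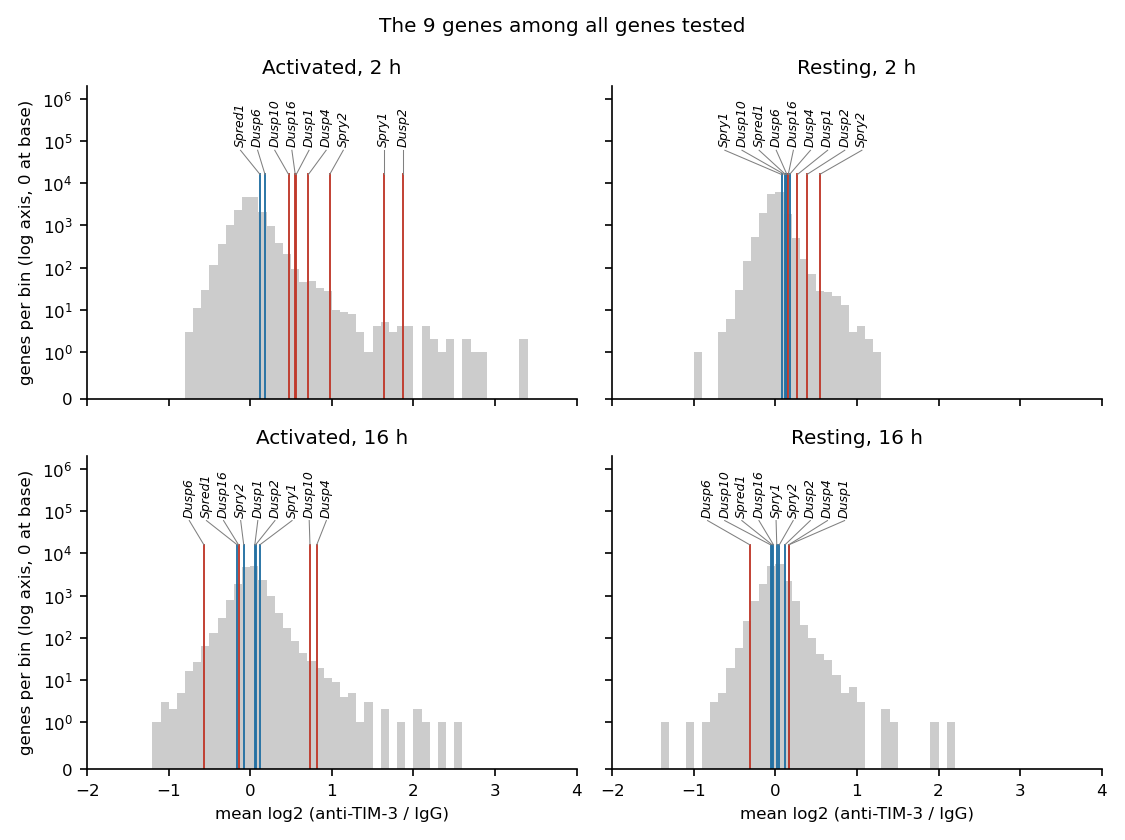
Distribution of the mean antibody ratio (log2 of anti-TIM-3 over IgG, in bins of 0.1, number of genes on a log axis) over all genes tested, with the 9 members as lines, red where the adjusted p was under 0.05 and blue otherwise. In activated cells at 2 h Dusp2 (1.87) and Spry1 (1.63) lie far in the upper tail. In activated cells at 16 h Dusp6 (-0.57) lies in the lower tail, and it turns to 0.22 under median centring, where the median gene is at 0.39.

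In activated cells at 16 h, 2 of the 9 genes were higher with anti-TIM-3 and 2 were lower, where 30.1% of all genes passed, 16.9% higher and 13.2% lower. For so few genes these counts are not far from the shares over all genes. The median antibody ratio was 0.06 over the members, against 0.01 over all genes. Dusp4 and Dusp10 were higher, Dusp6 and Dusp16 were lower, and Dusp2, Spry1, Spry2, Dusp1 and Spred1 did not pass. Dusp4 had antibody ratios of 0.76, 0.93, 0.70 and 0.86, a mean of 0.82 ± 0.10 (1.76-fold, adjusted p = 1.81e-05), and 0.69 (adjusted p = 6.7e-07) with its other probe. Dusp10 had 0.78, 0.81, 0.50 and 0.83, a mean of 0.73 ± 0.15 (1.66-fold, adjusted p = 3.75e-07). Both lay above 0 on all 4 arrays, with replicate 3 the low one for Dusp10.
Dusp6 had -0.71, -0.49, -0.62 and -0.46, a mean of -0.57 ± 0.11 (adjusted p = 1e-04), but 0.22 under median centring, where the median gene stood at 0.39. Dusp16 had -0.21, -0.14, -0.15 and -0.08, a mean of -0.14 ± 0.05 (adjusted p = 0.00721), but 0.31 under median centring, and its call was lost without replicate 1 (-0.12, adjusted p = 0.054). The other probes of Dusp16 gave -0.09 (adjusted p = 0.467) and -0.10 (adjusted p = 0.0645). Both genes thus lay below the median gene under either of these scalings, and below 0 under loess.
Spred1 averaged -0.16 ± 0.14 (adjusted p = 0.0531), with 0.55 under median centring, and passed without replicate 3 (-0.22, adjusted p = 0.025), while its RefSeq probes gave -0.13 (adjusted p = 0.0401) and -0.10 (adjusted p = 0.0566). Spry2 averaged -0.08 ± 0.19, with 0.33 under median centring. Spry1 had 0.18, -0.07, 0.17 and 0.19 (0.12 ± 0.13). Dusp2, which led at 2 h, had -0.03, 0.17, 0.10 and 0.02 (0.07 ± 0.09), and Dusp1 averaged 0.06 ± 0.12.

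In resting cells at 16 h, 1 of the 9 genes was higher and 1 lower, where 21.6% of all genes passed, 11.7% higher and 9.95% lower. Dusp1 had antibody ratios of 0.09, 0.22, 0.12 and 0.24, a mean of 0.17 ± 0.07 (adjusted p = 0.0261), and the call was lost without any one of the 4 arrays (adjusted p = 0.0536 to 0.0924). Without the 3 arrays that stand apart the mean of Dusp1 was 0.23 (adjusted p = 0.113). Dusp6 had -0.44, -0.02, -0.54 and -0.25, a mean of -0.31 ± 0.23 (adjusted p = 0.018), but 0.31 under median centring, where the median gene stood at 0.30. Its 2 lowest arrays, replicates 1 and 3, are those that stand apart, and the mean without the 3 such arrays was -0.14 (adjusted p = 0.478). Leaving out replicate 1 or 3 alone gave -0.27 (adjusted p = 0.109) and -0.24 (adjusted p = 0.134). The other 7 means ranged from -0.06 for Dusp10 to 0.16 for Dusp4 and did not pass, and under median centring those of Dusp10 (0.25), Dusp16 (0.34) and Spred1 (0.53) turned positive. When only these 4 arrays entered the fit, 0 of the 9 genes passed.

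The antibody ratio at 16 h was higher in activated than in resting cells for Dusp10 and Dusp4 and lower for 0 genes, where 8.58% of all genes passed, 4.71% higher and 3.87% lower. For Dusp10 the ratios of 0.50 to 0.83 in activated cells lay above those of -0.27 to 0.14 in resting cells, a difference of 0.79 (SE 0.09, adjusted p = 2.96e-05). Within slides 2 and 4 the difference was 0.94 and 0.95, and without the 3 arrays that stand apart it was 0.64 (adjusted p = 0.00075). For Dusp4 the ratios of 0.70 to 0.93 in activated cells lay above those of -0.07 to 0.33 in resting cells, a difference of 0.65 (SE 0.15, adjusted p = 0.0106), or 0.52 and 0.76 within slides 2 and 4. Its other probe gave 0.67 (adjusted p = 0.000194). Dusp6 differed by -0.26 (adjusted p = 0.218), and by -0.43 (adjusted p = 0.0386) without the 3 arrays. The remaining 6 genes differed by -0.13 to 0.10 and did not pass. The summed neutrophil markers, 1 of 4 above background, were at 354 to 485 in Cy5 and 464 to 661 in Cy3 in activated cells at 16 h, against 545 to 973 and 613 to 1137 in resting cells at 16 h, and their part in these differences was not tested.

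Between 16 h and 2 h in activated cells, 7 of the 9 antibody ratios were lower at 16 h and 0 were higher, where 17.2% of all genes passed, 9.14% higher and 8.05% lower. The largest differences were those of Dusp2, by -1.81 (SE 0.11, adjusted p = 2.8e-09), Spry1, by -1.52 (SE 0.09, adjusted p = 2.08e-09), and the brightest Spry2 probe, by -1.05 (SE 0.13, adjusted p = 2.77e-05), while the RefSeq probe of Spry2 gave -0.14 (adjusted p = 0.153). Within slide 3, which alone holds both groups, the differences of Dusp2, Spry1 and the brightest Spry2 probe were -1.82, -1.52 and -1.42. Dusp6 differed by -0.75 (adjusted p = 0.000337), Dusp16 by -0.70 (adjusted p = 7.88e-08) and Dusp1 by -0.51 (adjusted p = 6.86e-05), with slide 3 values of -0.85, -0.72 and -0.32. For these 6 genes every array at 16 h lay below every array at 2 h. How many of all genes did the same was not counted. The summed neutrophil markers in these activated cells were at 354 to 485 in Cy5 and 464 to 661 in Cy3 at 16 h, against 642 to 1299 and 694 to 1511 at 2 h. The summed macrophage and dendritic cell markers were at 6154 to 8216 in Cy5 and 6817 to 10239 in Cy3 at 16 h, against 3866 to 6348 and 3699 to 6594 at 2 h. The part of either in the time differences, here and in the single channels, was not tested.
Spred1 differed by -0.28 (SE 0.08, adjusted p = 0.0299), but by -0.16 (adjusted p = 0.251) with slide as a block and by -0.13 within slide 3. Its call was also lost without activated 16 h replicate 1 or 2 or activated 2 h replicate 1 or 4 (adjusted p = 0.0617 to 0.108), while its RefSeq probes gave -0.56 and -0.44. Dusp4 differed by 0.10 (SE 0.15, adjusted p = 0.706). Dusp10 differed by 0.26 (SE 0.09, adjusted p = 0.0626), and passed without activated 16 h replicate 3 (0.34, adjusted p = 0.0171). That array is the only activated 16 h array on slide 3, within which Dusp10 differed by 0.03. Dusp4 and Dusp10 were thus the 2 members higher with anti-TIM-3 in activated cells at both times.
In resting cells 0 of the 9 genes passed between 16 h and 2 h by limma, 4 had an unadjusted p under 0.05, and no other tool was run. Over all genes 0.287% passed, 0.0878% higher and 0.199% lower. All 9 differences were below 0, from -0.49 for Spry2 to -0.01 for Dusp4. The median difference was -0.17 over the members, against 0.00 over all genes. The shares of all genes below 0, or with an unadjusted p under 0.05, were not counted. Without resting 2 h replicate 3, Dusp6 (-0.57, adjusted p = 0.0187) and Spry2 (-0.53, adjusted p = 0.0332) passed.

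The single channels give the levels with and without antigen, compared across arrays. In IgG-treated cells (Cy3) at 2 h, 5 of the 9 genes were higher in activated than in resting cells and 2 were lower, where 42.9% of all genes passed, 15.3% higher and 27.6% lower. In anti-TIM-3-treated cells (Cy5), 7 were higher and 2 lower, where 45.4% of all genes passed, 17.1% higher and 28.3% lower. The channels share arrays, and the gap between their 2 differences is the difference of ratios already tested, so it is no separate test.
Dusp2 had log2 intensities of 12.41, 12.33, 12.55 and 12.25 in activated IgG-treated cells, against 10.68, 10.08, 10.36 and 10.60 in resting ones, a 3.88-fold difference (adjusted p = 5.96e-09). With anti-TIM-3 the means were 14.26 ± 0.18 in activated cells and 10.82 ± 0.22 in resting cells, a 10.9-fold difference (adjusted p = 2.43e-12). Neither channel's groups overlapped.

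**Figure D3:**
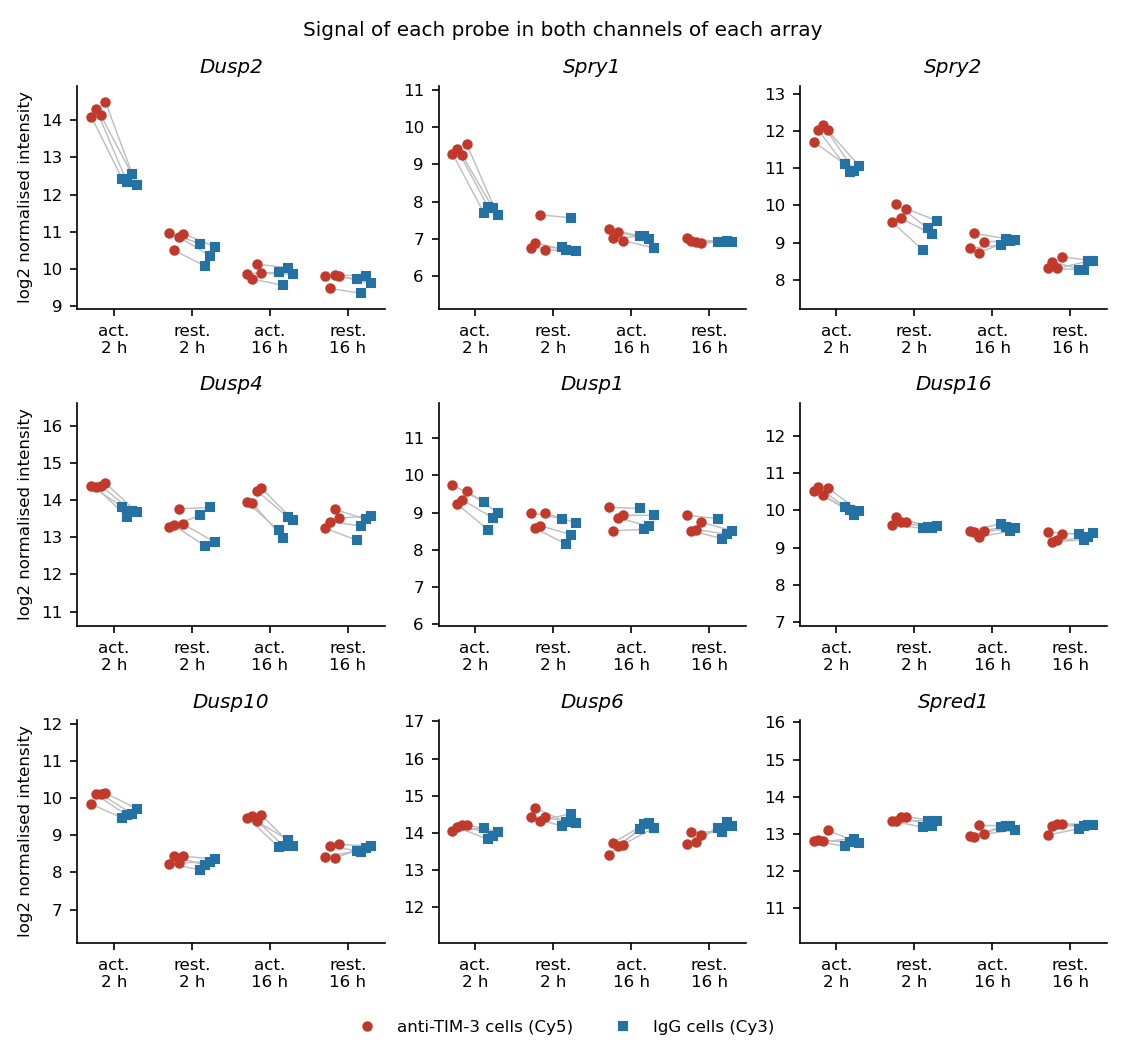
Normalised log2 intensity of the 9 genes on each of 16 arrays, with anti-TIM-3-treated cells (Cy5, red circles, left) joined to IgG-treated cells (Cy3, blue squares, right) of the same array, for activated and resting cells at 2 h and at 16 h. In activated cells at 2 h Dusp2 had 14.10 to 14.50 in Cy5 and 12.25 to 12.55 in Cy3, and in its other groups the channels lie close together.

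For Spry1, antigen went with a 1.77-fold higher level in IgG-treated cells (log2 difference 0.83, SE 0.15, adjusted p = 0.000237) and a 5.22-fold higher level in anti-TIM-3-treated cells (2.38, SE 0.15, adjusted p = 3.05e-09). Resting 2 h replicate 3 was high in Spry1 at 7.56 in Cy3, against 6.66 to 6.77 on the other resting arrays, and within slides 3 and 1 the Cy3 difference was 0.16 and 1.01. Spry2 was 3.38-fold higher in IgG-treated cells (1.76, adjusted p = 7.98e-09) and 4.56-fold higher in anti-TIM-3-treated cells (2.19, adjusted p = 1.07e-09). Its RefSeq probe gave 0.21 (adjusted p = 0.0293) and 0.24 (adjusted p = 0.0372) for these log2 differences in Cy3 and Cy5, so the probes of Spry2 differ in size here as well.
Dusp10 was 2.54-fold higher in IgG-treated cells (1.35, SE 0.07, adjusted p = 3.01e-10) and 3.26-fold higher in anti-TIM-3-treated cells (1.71, SE 0.09, adjusted p = 2.43e-10), with 1.44 and 1.36 in Cy3 within slides 1 and 3. Dusp16 was 1.36-fold higher (adjusted p = 8.4e-06) with IgG and 1.78-fold higher (adjusted p = 5.37e-08) with anti-TIM-3. Both of these JNK and p38 phosphatases were thus higher with antigen in either channel.

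Dusp4 and Dusp1 passed in anti-TIM-3-treated cells and did not pass in IgG-treated cells. Dusp4 was 1.95-fold higher in activated cells there (0.96, SE 0.12, adjusted p = 6.38e-06), against 0.42 (SE 0.21, adjusted p = 0.118) in IgG-treated cells, where it passed at 0.61 (adjusted p = 0.0203) without resting replicate 3. Within slides 1 and 3, however, the difference of Dusp4 in IgG-treated cells was 0.08 and -0.12. Its other probe gave 1.30 (adjusted p = 2.74e-09) in Cy5 and 0.86 (adjusted p = 1.41e-06) in Cy3.
Dusp1 was 1.60-fold higher with anti-TIM-3 (0.68, SE 0.15, adjusted p = 0.00109), against 0.39 (SE 0.18, adjusted p = 0.0963) with IgG. In Cy3, same-numbered arrays deviated together, and with the replicate number as a block Dusp1 passed (0.39, adjusted p = 5.5e-05). It also passed in Cy3 without activated replicate 2 (0.52, adjusted p = 0.03) or resting replicate 1 (0.49, adjusted p = 0.0469). Within slides 1 and 3 the Cy3 difference of Dusp1 was 0.07 and 0.52.
Dusp6 and Spred1, which did not pass for the antibody in activated cells at 2 h, were lower with antigen. Dusp6 had 14.13, 13.83, 13.93 and 14.04 in activated IgG-treated cells, against 14.19, 14.29, 14.52 and 14.27 in resting ones, a log2 difference of -0.34 (adjusted p = 0.00213), and -0.30 (adjusted p = 0.0111) in anti-TIM-3-treated cells. Spred1 was lower by a log2 difference of -0.51 (adjusted p = 1.1e-06) in IgG-treated cells and of -0.52 (adjusted p = 9.83e-05) in anti-TIM-3-treated cells. The RefSeq probes of Spred1 gave -0.20 and -0.20 in Cy3, but 0.14 (adjusted p = 0.271) and 0.12 (adjusted p = 0.197) in Cy5.

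**Figure D4:**
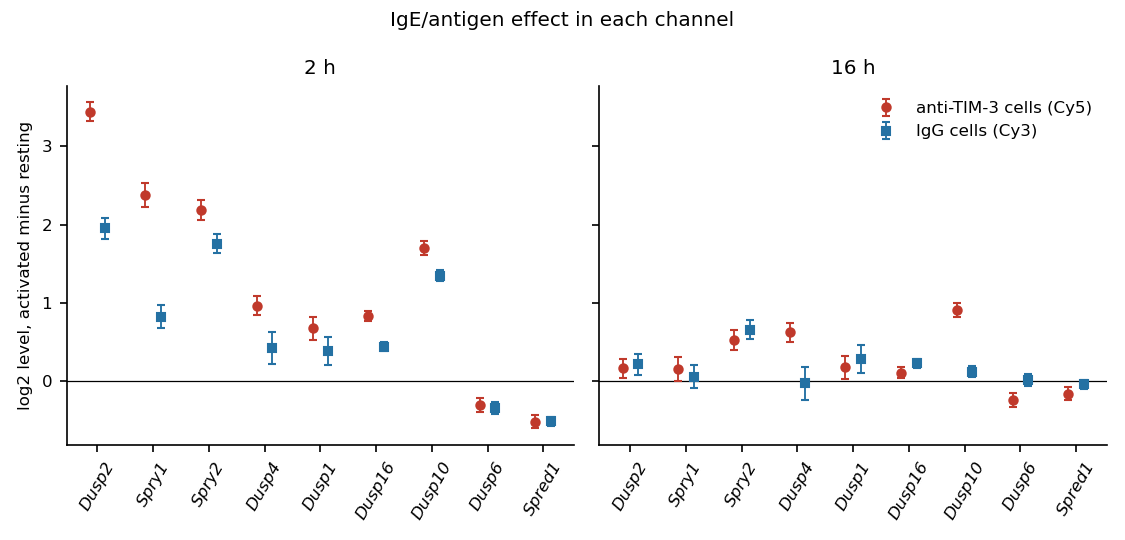
Log2 level in activated minus resting cells (mean difference ± SE) for the 9 genes, in anti-TIM-3-treated cells (Cy5) and IgG-treated cells (Cy3), at 2 h and at 16 h. At 2 h Dusp2 reaches 3.44 in Cy5 and 1.96 in Cy3, and Dusp6 and Spred1 lie below 0 in both channels. At 16 h Dusp10 (0.91) and Dusp4 (0.63) lie above 0 in Cy5 and near 0 in Cy3.

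At 16 h fewer of these levels differed between activated and resting cells. In IgG-treated cells 2 of the 9 genes were higher and 0 lower, where 12.3% of all genes passed, 5.24% higher and 7.03% lower. In anti-TIM-3-treated cells 3 were higher and 0 lower, where 19.2% passed, 9.37% higher and 9.84% lower. Same-numbered arrays deviated together in Cy5 at 16 h as well. With the replicate number as a block 4 genes were higher and 1 lower, Dusp1 (0.18, adjusted p = 0.0287) and Dusp6 (-0.24, adjusted p = 0.0172) being added. The share of all genes passing with that block is not given here, so these blocked counts stand without a background. Spry2 was higher in both, by 0.66 (1.58-fold, adjusted p = 0.00193) in Cy3 and by 0.53 (1.44-fold, adjusted p = 0.0098) in Cy5, where without the 3 arrays that stand apart it was 0.41 (adjusted p = 0.137). With its probes averaged, Spry2 gave 0.28 (adjusted p = 0.0039) in Cy3 and 0.17 (adjusted p = 0.151) in Cy5. Its RefSeq probe alone gave -0.09 (adjusted p = 0.494) in Cy3 and -0.18 (adjusted p = 0.188) in Cy5, the opposite direction.
Dusp10 was higher in anti-TIM-3-treated cells, at 9.47, 9.53, 9.38 and 9.54 in activated cells, against 8.43, 8.71, 8.40 and 8.75 in resting cells (1.88-fold, adjusted p = 3.77e-06). In IgG-treated cells it was at 8.75 ± 0.09 in activated and 8.63 ± 0.07 in resting cells, a difference of 0.12 (adjusted p = 0.322). Dusp4 was 1.54-fold higher in anti-TIM-3-treated cells (0.63, adjusted p = 0.00205), against -0.02 (adjusted p = 0.96) in IgG-treated cells. So the late antibody ratios of both genes went with a higher Cy5 level in activated cells.
Dusp16 was higher in activated IgG-treated cells by 0.23 (adjusted p = 0.0128), but by 0.20 (adjusted p = 0.0507) without activated replicate 1, and by 0.07 (adjusted p = 0.36) with its probes averaged. Dusp1 was higher there by 0.29 (adjusted p = 0.349), which passed with the replicate number as a block (adjusted p = 0.00282). Dusp6 differed by -0.24 (adjusted p = 0.0776) in anti-TIM-3-treated cells, and by -0.36 (adjusted p = 0.0342) without the 3 arrays that stand apart, or -0.29 (adjusted p = 0.0496) without resting replicate 1 alone.

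Over time, the IgG-treated cells alone show how the levels went without the TIM-3 antibody. In activated cells 5 of the 9 genes were lower at 16 h than at 2 h and 2 were higher, where 60.1% of all genes passed, 33.8% higher and 26.3% lower. Dusp2 was at 9.84 ± 0.20 at 16 h and 12.38 ± 0.13 at 2 h, a log2 difference of -2.55 (adjusted p = 6.61e-11). Spry2 was at 9.04 ± 0.08 at 16 h and 11.00 ± 0.10 at 2 h (-1.97, adjusted p = 5.8e-10), Dusp10 differed by -0.83 (adjusted p = 2.86e-08), Spry1 by -0.77 (adjusted p = 0.000275) and Dusp16 by -0.45 (adjusted p = 3.37e-06). The arrays of these 5 genes did not overlap between the times. How often this held among all genes was not counted. The RefSeq probe of Spry2 gave -0.40 (adjusted p = 0.000134). The other probes of Dusp16 gave -0.19 (adjusted p = 0.00346) and 0.12 (adjusted p = 0.0418), which differ in direction. Dusp4 differed by -0.39 (adjusted p = 0.122), while its other probe was lower at 16 h by -1.21 (adjusted p = 8.12e-09). The neutrophil and macrophage marker sums given above for Cy3 did not overlap between these times either.
Spred1 was higher at 16 h by 0.41 (adjusted p = 5.38e-06), but by 0.01 (adjusted p = 0.944) with its probes averaged, and its RefSeq probes were lower at 16 h, by -0.17 (adjusted p = 0.048) and -0.23 (adjusted p = 0.0128). Dusp6 was higher by 0.21 (adjusted p = 0.0307), a call lost without activated 16 h replicate 2 or 3 or activated 2 h replicate 2 or 3 (adjusted p = 0.069 to 0.109).
In resting IgG-treated cells 3 of the 9 were lower at 16 h and 1 higher, where 46.9% of all genes passed, 24% higher and 22.9% lower. Spry2 differed by -0.87 (adjusted p = 2.08e-05), though by -0.11 (adjusted p = 0.259) with its RefSeq probe, and Dusp2 by -0.81 (adjusted p = 9.11e-05). Dusp16 differed by -0.24 (adjusted p = 0.0025), though with its probes averaged it was at 0.04 (adjusted p = 0.474). The other probes of Dusp16 gave 0.34 (adjusted p = 2.47e-05), higher at 16 h, and 0.02 (adjusted p = 0.797), so its direction depends on the probe. Dusp10 was higher, by 0.40 (adjusted p = 0.000175). The RefSeq probes of Spred1 were lower at 16 h by -0.41 (adjusted p = 0.000126) and -0.55 (adjusted p = 1.02e-05), and the other Dusp4 probe by -0.27 (adjusted p = 0.0274). Spry1 was at 0.00 and passed without resting 2 h replicate 3 (0.21, adjusted p = 0.0275). For Dusp2 the difference was -1.34, -0.35 and -0.89 within slides 1, 2 and 4.

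The order of the group means, each by the brightest probe, differed between genes. In IgG-treated cells Dusp2 was highest in activated cells at 2 h (12.38), next in resting cells at 2 h (10.43), and then in activated (9.84 ± 0.20) and resting (9.62 ± 0.20) cells at 16 h, a pair that did not differ beyond its spread. Spry2 had the order 11.00, 9.25, 9.04 and 8.38 over the same groups, and its resting level at 2 h (9.25 ± 0.33) and activated level at 16 h (9.04 ± 0.08) did not differ beyond their spread. Dusp10 had 9.58 in activated cells at 2 h, 8.75 and 8.63 in activated and resting cells at 16 h, and 8.23 in resting cells at 2 h. Spry1 was at 7.75 in activated cells at 2 h and at 6.92 to 6.98 in the other groups, which did not differ beyond their spread. Dusp16 was at 9.99 in activated cells at 2 h, at 9.54 in activated cells at 16 h, at 9.54 also in the resting 2 h group, and at 9.31 in resting cells at 16 h. Dusp6 and Spred1 had their lowest level in activated cells at 2 h (13.98 and 12.77), against 14.17 to 14.32 and 13.18 to 13.28 in the other groups. For Spred1 this order holds for the brightest probe, since its RefSeq probes were lower at 16 h than at 2 h in both activated and resting cells. The orders of Dusp16 and Spry2 depend on the probe as well. Another Dusp16 probe was higher at 16 h than at 2 h, by 0.12 in activated and 0.34 in resting cells. The RefSeq probe of Spry2 was at -0.09 (adjusted p = 0.494) in activated minus resting cells at 16 h. Dusp1 had group means of 8.51 to 8.91 and the brightest Dusp4 probe 13.26 to 13.68, where the other Dusp4 probe had the larger differences given above.

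The antibody ratio of Dusp2 over the 16 arrays was most like those of Gch1 (r = 0.988), Sgk1 (0.986), Gem (0.986), Ptgs2 (0.986) and Il4 (0.984), whose mean ratios in activated cells at 2 h were 1.00, 1.41, 1.88, 2.61 and 2.14. Among the members, Dusp2 had r = 0.971 with Spry1 and 0.946 with Dusp16, but 0.197 with Dusp10, which in turn had 0.75 with Dusp4. The 16 arrays fall into 4 groups and share the dye orientation, so these values describe the group pattern.

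Other genes of the pathway were counted from lists chosen by function. Of 15 ERK-induced early genes, 10 were higher with anti-TIM-3 in activated cells at 2 h and 0 lower, with a median antibody ratio of 0.31, where 17.1% of all genes were higher and 16.3% lower. In resting cells at 2 h, 8 of the 15 were higher and 0 lower, where 7.07% and 6.92% of all genes were. The ratio was higher in activated than in resting cells for 7 of the 15 at 2 h and lower for 0, where 3.59% and 1.99% of all genes were. At 16 h in activated cells 2 were higher and 6 lower, where 16.9% and 13.2% of all genes were. The transcription factor gene Egr3 led with 2.25 ± 0.25 (4.77-fold, adjusted p = 7.34e-12), or 1.37 with its probes averaged, followed by Egr1 at 1.30 ± 0.35 (adjusted p = 5.69e-08), Fosb at 1.14 ± 0.19 (adjusted p = 6.45e-10) and Junb at 0.86 ± 0.18 (adjusted p = 2.23e-08).
Of the other DUSP, Sprouty and Spred genes, 14 of 18 were measured, and 5 were higher and 2 lower in activated cells at 2 h, beside the same 17.1% and 16.3% of all genes. Dusp8, a JNK and p38 phosphatase, rose by 0.43 ± 0.09 (adjusted p = 1.88e-07) and Spred2 by 0.40 ± 0.17 (adjusted p = 9.81e-05). The ERK phosphatases Dusp7 and Dusp9 were lower, at -0.41 ± 0.11 (adjusted p = 0.000648) and -0.33 ± 0.12 (adjusted p = 6.44e-05), with -0.14 (adjusted p = 0.198) and -0.13 (adjusted p = 0.0382) under median centring.
Of 9 measured genes among 10 other brakes on Ras and ERK, 3 were higher and 0 lower in activated cells at 2 h, beside 17.1% and 16.3% of all genes: Errfi1, an inhibitor of EGF-family receptors, at 0.85 ± 0.12 (adjusted p = 4.16e-09), the adaptor gene Dok2 at 0.28 ± 0.10 (adjusted p = 0.00294) and the Ras GTPase-activating gene Rasa2 at 0.24 ± 0.15 (adjusted p = 0.0199), or 0.13 (adjusted p = 0.259) with slide as a block. Pebp1, an inhibitor of the ERK cascade, was at -0.16 (adjusted p = 0.0542), and at 0.30 under median centring.

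Genes of the kinase cascades were called in both directions. Of 18 ERK cascade genes, 6 were higher and 5 lower in activated cells at 2 h, with a median ratio of 0.08, where 17.1% of all genes were higher and 16.3% lower. Rps6ka3, which encodes a kinase downstream of ERK, was higher at 0.35 ± 0.08 (adjusted p = 0.000411). The adaptor gene Grb2 was lower at -0.35 ± 0.08 (adjusted p = 8.15e-06), but under median centring it was at 0.27, beside 0.22 for the median gene.
Of 14 JNK and p38 cascade genes, 2 were higher and 1 lower, shares no larger than the 17.1% and 16.3% over all genes. Map3k7, the kinase TAK1, was higher at 0.32 ± 0.05 (adjusted p = 0.000165) and Map2k4 at 0.15 ± 0.06 (adjusted p = 0.00659). Map2k6 was lower at -0.12 ± 0.07 (adjusted p = 0.0475), or -0.11 (adjusted p = 0.152) with slide as a block, and Map3k5 was at 0.14 ± 0.15 (adjusted p = 0.0593). Havcr2, the gene of TIM-3 itself, was at 0.59 ± 0.08 (adjusted p = 6.69e-07) in activated cells at 2 h, or 0.34 with Agilent's processed signals, and at 0.04 ± 0.16 (adjusted p = 0.666) in resting cells at 2 h, a difference of 0.55 (adjusted p = 0.000328).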

How the data were processed

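The deposited files hold spot intensity values on a linear scale for each dual-colour Agilent array, read with Agilent Feature Extraction 9.1.3.1, per the file headers (version 9 per the submitters' processing notes). The authors' deposited value table holds log10 ratios of processed Cy5 over Cy3 that equal the scanner's (largest difference 0). Version 5.5 of the dual-colour protocol was used, per the labels' protocols.

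From these, limma 3.58.1 in R 4.3.3 (files read with the data.table package, version 1.17.8) computed the values given here. Spot backgrounds were handled with normexp (offset 50, which understates changes of dim genes), followed by loess within arrays that gave controls and outlier-flagged spots no weight. Ratios are log2 of Cy5 over Cy3, recomputed from the deposited intensities, and single-channel log2 levels followed Aquantile normalisation between arrays. Of 45018 spots, 1639 were controls. The filter asked for a signal well above background, in Cy5 or Cy3, on 3 or more of the 4 arrays of any group, and 25394 of 41174 probes passed it. Names came from RefSeq accessions (22951 probes), symbols (6659) or older symbols (3109), and 8455 probes kept the file's name. Each gene is its brightest probe, and the levels of different probes are not compared. Outlier flags removed 596 of 273312 gene values.

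One fit of 16 arrays with 4 group means (lmFit, eBayes, two-sided) served all 14 comparisons, with Benjamini-Hochberg adjustment over all genes and a threshold of 0.05. It was checked on simulated ratios. Same-numbered arrays of different groups deviated together in Cy3 (r of 0.128 to 0.669, over 0.1 in 16 of 16 pairs) and in most pairs in Cy5 (-0.0304 to 0.596, over 0.1 in 14 of 16), but not in the ratios (-0.449 to 0.635, 7 of 16). Every pair was over 0.1 in Cy5 between activated and resting cells at 16 h (0.232 to 0.543), but not at 2 h (0.0722 to 0.469). The pairing comes from this check and not from the labels, and blocked values that change a call are given for Cy3 and for Cy5 at 16 h.

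The members, lists and tests were chosen with earlier results of these data known, so no list is independent evidence. Named genes are the measured members, from each list the 4 with the smallest adjusted p for the antibody in activated cells at 2 h, Havcr2, and the 5 genes most like the member with the largest ratio. Of the genes this rule names, 2 are not reported here. Alternatives were processed signals, median centring, another offset, single-channel quantile, other filters, averaged probes, only the groups compared, slide or replicate blocks, leaving out each array and, chosen after seeing the data, leaving out the 3 arrays that stand apart and fitting every probe.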

Additional observations from a re-analysis of the deposited data

Results flagged for a closer look

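Of 108 groups of 4 arrays (9 genes, 4 groups, ratio and both channels), 10 had an array far from the other 3 by Dixon's criterion, where chance flags about 1 in 20 groups. For Dusp10, activated 16 h replicate 3 had a low antibody ratio of 0.50, against 0.78 to 0.83 on the others, and a high Cy3 level of 8.88, against 8.69 to 8.72. On activated 2 h replicate 1 the Cy5 level of Dusp10 was low, at 9.84 against 10.10 to 10.14. Resting 2 h replicate 3, one of the arrays that stand apart, was high in Dusp4 in Cy5 (13.76, against 13.28 to 13.35) and in Spry1 in Cy3 (7.56, against 6.66 to 6.77). Resting 16 h replicate 1 had a low Spred1 ratio of -0.17, against -0.01 to 0.02, and resting 16 h replicate 2 a low Cy5 level of Dusp2 (9.48, against 9.82 to 9.84). Activated 16 h replicate 2 had a low Spry1 ratio of -0.073, against 0.17 to 0.19, and activated 16 h replicate 3 a low Cy5 level of Dusp16 (9.29, against 9.42 to 9.44). Activated 2 h replicate 4 had a high Cy5 level of Spred1 (13.10, against 12.80 to 12.84).

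The antibody ratio also differed between groups, by limma's test of the difference with Benjamini-Hochberg adjustment, in 15 cases. Activated minus resting at 2 h, these were Spry1 (1.56), Dusp2 (1.49), Dusp4 (0.54), Dusp16 (0.39), Dusp10 (0.36) and Dusp1 (0.29). At 16 h they were Dusp10 (0.79) and Dusp4 (0.65). Between 16 h and 2 h in activated cells they were Dusp2 (-1.81), Spry1 (-1.52), Spry2 (-1.05), Dusp6 (-0.75), Dusp16 (-0.70), Dusp1 (-0.51) and Spred1 (-0.28).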

How the results depend on the processing

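Over all alternatives for single genes, 2321 values kept their direction and side of the threshold, 69 lost the call, 58 gained it and 12 turned round. Median centring put the median gene at 0.22 (activated 2 h), 0.21 (resting 2 h), 0.39 (activated 16 h) and 0.30 (resting 16 h), and 9, 8 and 8 members were then called in activated 16 h, resting 2 h and resting 16 h, all higher. Most of all genes tested were then called higher in these groups too, so these counts are not read as a result about the members. This scaling turned Dusp6 (0.22), Dusp16 (0.31), Spred1 (0.55) and Spry2 (0.33) in activated cells at 16 h, Dusp10 (0.25), Dusp16 (0.34), Dusp6 (0.31) and Spred1 (0.53) in resting cells at 16 h, and Grb2 (0.27) and Pebp1 (0.30) in activated cells at 2 h. Averaged probes turned Dusp16 in Cy3 between 16 h and 2 h in resting cells (0.041) and Spred1 activated minus resting at 2 h (0.22). Of the members' counts, activated minus resting at 2 h gave 3 with processed signals and 3 to 6 leaving out an array. In Cy3 at 16 h the count was 1 with averaged probes, 1 without the 3 arrays that stand apart and 1 to 2 leaving out an array. With the replicate block Cy5 at 16 h gave 5 and the resting 16 h minus 2 h ratio 1 (0 to 2 leaving out an array). The counts over all genes with that block are not given here. Resting 16 h gave 0 with only its own arrays, 0 without the 3 arrays and 0 to 1 leaving out an array, and resting 2 h gave 2 with only its own arrays. In Cy3 the replicate block changed no other member's call than that of Dusp1, and in Cy5 none but those of Dusp1 and Dusp6 at 16 h. The causes were not tested.

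Over all genes, median centring gave 11073 calls (10292 higher, 781 lower) against 5696 (2918 and 2778) in activated 2 h, 10476 (10143, 333) against 2389 (1207, 1182) in resting 2 h, 13562 (12070, 1492) against 5147 (2884, 2263) in activated 16 h, and 12493 (11547, 946) against 3695 (1995, 1700) in resting 16 h. For the differences it gave 5345 (4227, 1118) against 2937 (1562, 1375) in activated 16 h minus 2 h and 2213 (1877, 336) against 1465 (804, 661) in activated minus resting at 16 h. Without the 3 arrays, resting 16 h had 523 calls, activated minus resting at 16 h 641, its Cy3 level 1221 against 2096 and its Cy5 level 1864 against 3281. With only the groups compared the counts were 1729 in resting 16 h, 375 in resting 2 h and 571 against 953 in activated minus resting at 2 h. Leaving out 1 array gave 1450 to 1452 in resting 16 h (replicates 1, 3), 1262 in resting 2 h (replicate 1), 576 and 611 at 2 h (activated replicates 4, 2), and 862 to 926 at 16 h (activated replicate 1, resting replicates 1, 3). Resting 16 h minus 2 h ranged from 7 without the 3 arrays to 1957 without resting 2 h replicate 3, against 49. Signal over background limits the dimmest member, Spry1, whose ratio in activated cells at 2 h was 1.86 with an offset of 10.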
